A study of Mus musculus with 4 samples.

Results

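Myeloid lineage transcription factors are the DNA-binding proteins that set and hold the fate of neutrophils, monocytes, macrophages and dendritic cells. The 9 genes described here, Spi1, Cebpa, Cebpb, Cebpd, Cebpe, Maf, Klf4, Irf8 and Zeb2, were taken by symbol from the 31053 features counted in single immune cells of mouse skin wounds. All 9 symbols were found, each as 1 feature. The cells were live CD45+ (the pan-leukocyte surface protein), propidium iodide-negative cells sorted from 3 mm punch wounds of 8-week-old male mice. The mice were either wild-type C57BL6/J (Angptl4+/+) or Angptl4-/-, and the wounds were taken at 1 or 5 days post wounding (dpw). Each of the 4 combinations of genotype and day was 1 library with no replicate, and the number of mice behind a library was not given in the sources used here. Angptl4-/- is a constitutive deletion of the secreted protein angiopoietin-like 4, carried in every cell of the animal. The Angptl4+/+ mice were bought from a separate vendor, so colony, background and genotype cannot be told apart. Because there was 1 library per condition, no difference was tested, no p-value is given, and every interval is a 95% interval for counting error only.

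In the marrow, PU.1 (encoded by Spi1) is needed for all myeloid lineages. The C/EBP proteins divide the work among themselves: C/EBPα drives early granulocyte and monocyte commitment, C/EBPε drives terminal granulocyte maturation and its granule genes, and C/EBPβ and C/EBPδ are induced in inflammation. IRF8 directs monocyte and dendritic cell fate and holds back the neutrophil program, KLF4 promotes monocyte differentiation, c-Maf is a factor of mature tissue macrophages, and ZEB2, a repressor that binds E-boxes, is required for monocytes, plasmacytoid dendritic cells and the identity of tissue macrophages.

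The genes lie on 6 chromosomes of GRCm38 (GENCODE annotation). Spi1 (ENSMUSG00000002111) spans chromosome 2 from 91082390 to 91115756, Cebpb (ENSMUSG00000056501) chromosome 2 from 167688915 to 167690418 in a single exon, and Zeb2 (ENSMUSG00000026872) chromosome 2 from 44983632 to 45117395. Cebpa (ENSMUSG00000034957) lies on chromosome 7 from 35119293 to 35121928, and Maf (ENSMUSG00000055435) and Irf8 (ENSMUSG00000041515) lie on chromosome 8, from 115682942 to 115707794 and from 120736358 to 120756694. Cebpd (ENSMUSG00000071637) lies on chromosome 16 from 15887286 to 15891031, Cebpe (ENSMUSG00000052435) on chromosome 14 from 54710360 to 54712174, and Klf4 (ENSMUSG00000003032) on chromosome 4 from 55527143 to 55532466. Counts of 3′ tags do not scale with transcript length, so levels are compared between genes as unique molecular identifiers (UMIs), scaled to a class's counts per 1000000 UMIs (CPM).

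The members are themselves DNA-binding proteins, so the 250 bases before the start of each member were searched on both strands for 6 short motifs. RefSeq promoters (GRCm38.p6) were held for 5 of the 9 members, which are Cebpa, Cebpb, Klf4, Irf8 and Zeb2. The letters searched were GAGGAAGT for PU.1, TTGCNNAA for C/EBP, GAAA repeated after any 2 bases for IRF, CACCTG for the ZEB E-box, CCACCC for KLF and TGCTGA for MAF. Of 32851 mouse promoters of that length, 2.44% held the PU.1 letters, 9.56% the C/EBP letters, 2.98% the IRF letters, 17.2% the E-box, 28.1% the KLF letters and 16.1% the MAF letters. The 4 stretches below are shown because Irf8, Zeb2 and Cebpb are the members on which the results within dendritic cell-like and neutrophil-like cells turn, and the stretch before the Irf8 gene start is shown although it held no match. Capitals mark the matched letters on either strand. They are Irf8 promoter 1 at chr8:120736108-120736357 on the + strand, Irf8 promoter 2 at chr8:120738389-120738638 on the + strand, Zeb2 promoter 1 at chr2:45117443-45117692 on the − strand, and Cebpb at chr2:167688665-167688914 on the + strand.
Irf8 promoter 1: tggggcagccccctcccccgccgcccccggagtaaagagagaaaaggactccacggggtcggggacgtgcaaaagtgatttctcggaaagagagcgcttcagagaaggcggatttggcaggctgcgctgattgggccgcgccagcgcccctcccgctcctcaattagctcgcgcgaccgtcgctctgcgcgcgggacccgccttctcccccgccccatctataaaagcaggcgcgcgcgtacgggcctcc
Irf8 promoter 2: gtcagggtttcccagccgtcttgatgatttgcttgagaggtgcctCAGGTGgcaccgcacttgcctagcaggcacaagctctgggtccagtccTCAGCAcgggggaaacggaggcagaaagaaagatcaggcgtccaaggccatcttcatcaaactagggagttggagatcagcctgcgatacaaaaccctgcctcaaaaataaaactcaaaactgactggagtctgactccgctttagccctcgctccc
Zeb2 promoter 1: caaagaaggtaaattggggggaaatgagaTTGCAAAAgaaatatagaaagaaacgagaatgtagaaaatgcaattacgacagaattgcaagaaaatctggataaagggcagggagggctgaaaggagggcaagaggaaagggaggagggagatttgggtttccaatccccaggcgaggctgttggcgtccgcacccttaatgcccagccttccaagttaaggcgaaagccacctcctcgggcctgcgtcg
Cebpb promoter 1: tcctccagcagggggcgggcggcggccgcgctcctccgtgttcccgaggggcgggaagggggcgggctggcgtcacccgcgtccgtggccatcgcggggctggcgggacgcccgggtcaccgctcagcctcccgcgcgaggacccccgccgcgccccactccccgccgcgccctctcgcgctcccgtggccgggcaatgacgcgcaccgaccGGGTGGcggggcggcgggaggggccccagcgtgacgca

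The second Irf8 promoter held the E-box at position -205 and the MAF letters at position -157, counted from the start. Zeb2 promoter 1 held the C/EBP letters at -221, and the Cebpb promoter held the KLF letters at -38. Zeb2 had further promoters that are not shown, of which promoters 2 and 3 held no match and promoter 4 the KLF letters at -36. The Cebpa promoter, also not shown, held the KLF letters at -242, and that of Klf4 held no match. A match is a description of letters, not of binding. No promoter among these 5 members held the PU.1 or IRF letters in its window.

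Angptl4 itself had 47 and 78 UMIs over the passing cells of the Angptl4+/+ libraries at 1 and 5 dpw, and 0 in both Angptl4-/- libraries. A total of 19827 cells passed the filter, 4738 to 5346 per library, with 26898397 to 32815888 UMIs per library and a median of 3735.5 to 4975.5 UMIs per cell. Cells were clustered without the 9 members among the variable genes and named from marker lists. Neutrophil-like cells were 72.8% and 54.6% of Angptl4+/+ cells at 1 and 5 dpw and 77.1% and 73.9% of Angptl4-/- cells. Macrophage-like cells were 21.5%, 31.2%, 17.6% and 13.6% in the same order, dendritic cell-like cells 2.04%, 6.29%, 1.81% and 4.37%, and monocyte-like cells 128 to 154 per library. The monocyte-like class was a single cluster, led by Ace, Prtn3 and Hpgd. In neutrophil-like cells of every library 11 of 11 listed neutrophil markers, among them S100a8 and Csf3r, were found, with a summed level of 108113 to 220039 CPM. A total of 96 passing cells carried a barcode that was also seen in another library. Leaving them out moved no member's ratio by more than its counting interval.

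The 9 genes divided the classes in 3 ways, shown in the plot of levels by class. Cebpb was the highest of all in neutrophil-like cells, Spi1 was spread across the myeloid classes, and Maf, Klf4, Irf8 and Cebpa were nearly absent from neutrophil-like cells. Each gene is taken in turn below, and the values of the 4 libraries are in the order Angptl4+/+ at 1 dpw, Angptl4+/+ at 5 dpw, Angptl4-/- at 1 dpw and Angptl4-/- at 5 dpw.

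**Figure D1:**
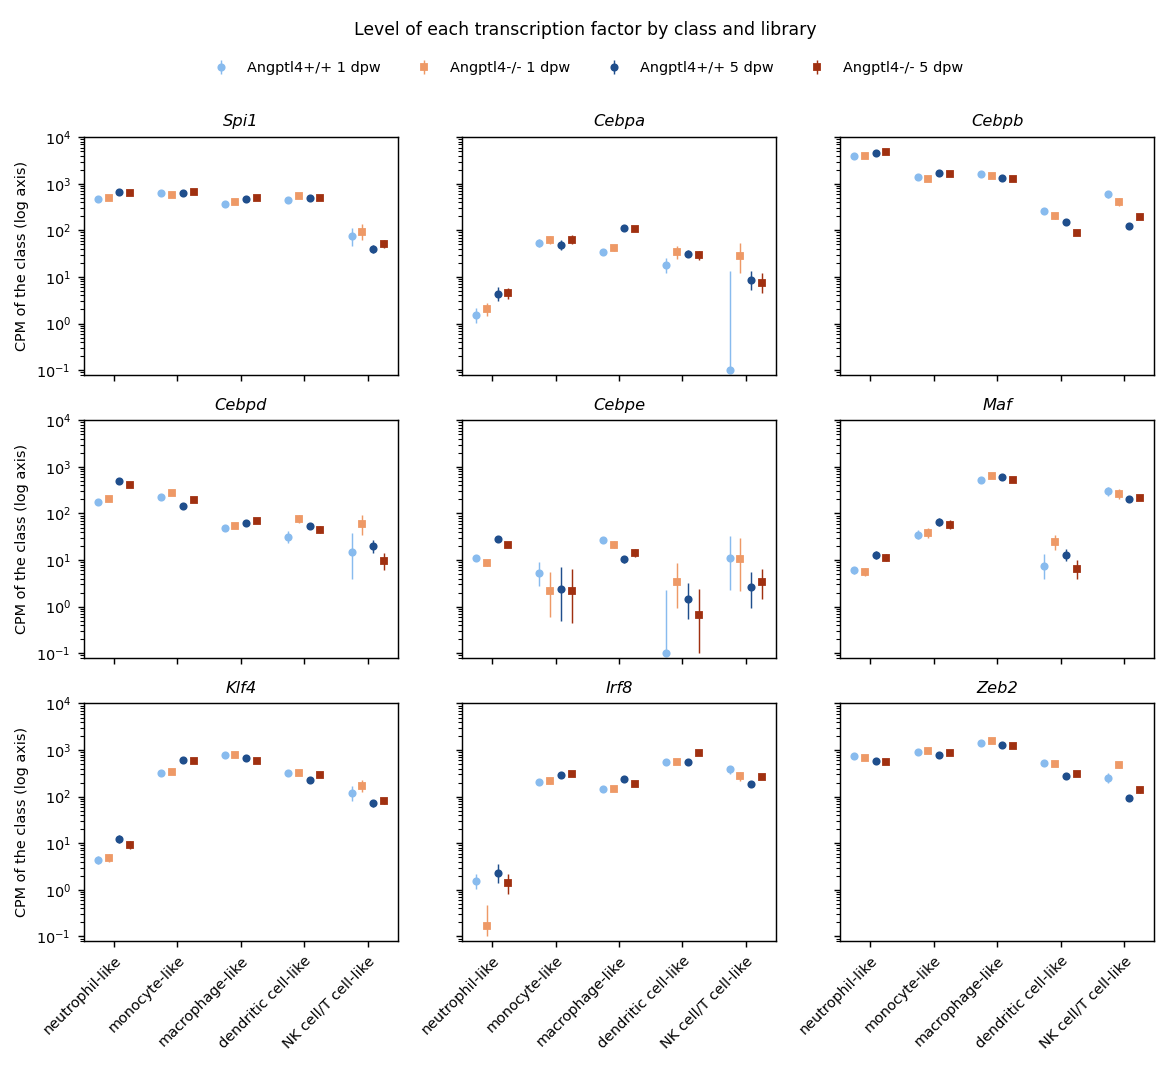
Level (CPM, log axis) of each of the 9 members in each class of each library, with 95% Poisson intervals for counting error; sums with no UMI are drawn at the foot of the axis. Neutrophil-like cells had 3884 to 4871 CPM of Cebpb and 0.164 to 2.31 CPM of Irf8, while dendritic cell-like cells had 549.6 to 878 CPM of Irf8.

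Spi1 was the most even of the members. Monocyte-like cells had 625, 645, 580.2 and 681 CPM and neutrophil-like cells 477, 661, 496 and 621 CPM. Dendritic cell-like cells had 452, 493, 559 and 488 CPM, and macrophage-like cells 374, 465, 414 and 496 CPM. The ranges of each class overlapped with those of its neighbour in this order, while monocyte-like cells lay above macrophage-like cells in every library. NK cell/T cell-like cells, which are lymphoid, had 73.9, 40, 93.5 and 51.3 CPM, below every myeloid class.

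Cebpb was the most abundant member, at 4029, 4654, 3884 and 4871 CPM in neutrophil-like cells, in which 98.5% to 99.7% of cells had a UMI. Monocyte-like cells had 1375, 1716, 1285 and 1604 CPM and macrophage-like cells 1626, 1308, 1499 and 1241 CPM, overlapping ranges. Dendritic cell-like cells had 258, 154, 204 and 89.6 CPM. The neutrophil-like level lay above the monocyte-like level in every library, and dendritic cell-like cells were the lowest of the myeloid classes.

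Cebpd was also highest in neutrophil- and monocyte-like cells. Neutrophil-like cells had 176, 493, 201 and 408 CPM and monocyte-like cells 222, 142, 269.5 and 196 CPM. Macrophage-like cells had 48, 61.4, 54.6 and 69.3 CPM and dendritic cell-like cells 32, 55.1, 76.5 and 45.2 CPM. Cebpe, the granule gene regulator, was low throughout, with 10.9, 28.3, 8.73 and 21.2 CPM in neutrophil-like cells and 27.5, 10.4, 21.4 and 14.4 CPM in macrophage-like cells. Elane and Mpo, granule genes of the earliest neutrophil precursors, had no more than 2 and 10 UMIs in any neutrophil-like cluster.

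Maf was highest in macrophage-like cells, with 530.4, 593, 628 and 523 CPM in macrophage-like cells against 35.3, 66.1, 37.9 and 57.3 CPM in monocyte-like cells. The lymphoid NK cell/T cell-like class had 299, 203, 263 and 212 CPM, dendritic cell-like cells 7.53, 13, 24.4 and 6.35 CPM, and neutrophil-like cells 5.99, 13, 5.56 and 11.3 CPM. Klf4 had 767, 688, 801 and 595 CPM in macrophage-like cells, 327, 620, 332 and 581 CPM in monocyte-like cells and 329, 228, 318 and 287 CPM in dendritic cell-like cells. Klf4 was at 4.42, 12.3, 4.86 and 9.23 CPM in neutrophil-like cells.

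Irf8 was highest in dendritic cell-like cells, with 549.6, 557, 561 and 878 CPM. NK cell/T cell-like cells had 384, 188, 277 and 264 CPM, monocyte-like cells 202, 292, 212 and 305 CPM, and macrophage-like cells 148, 243, 146 and 191 CPM. In neutrophil-like cells Irf8 was at 1.52, 2.31, 0.164 and 1.39 CPM, with a UMI in 0.0811% to 0.704% of cells. IRF8 is known for holding back the neutrophil program, and neutrophil-like cells had the lowest Irf8 of the 5 larger classes in every library. Zeb2 had 1419, 1256, 1569 and 1211 CPM in macrophage-like cells, 915, 791, 953 and 847 CPM in monocyte-like cells, 735, 584, 669 and 549 CPM in the neutrophil-like class and 538, 278, 502 and 303 CPM in dendritic cell-like cells. Cebpa had 35.1, 111, 40.8 and 108 CPM in macrophage-like cells, 53.8, 48.6, 61.5 and 63.1 CPM in the monocyte-like class and 1.52, 4.4, 2.02 and 4.41 CPM in the neutrophil-like class.

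Cebpa, Maf, Klf4, Irf8 and Zeb2 were higher in macrophage-like than in neutrophil-like cells in all 4 libraries. Klf4 was 5.81 to 7.44 higher on the log2 scale, Maf 5.52 to 6.82 and Irf8 6.6 to 9.8. The median over all genes tested was itself 0.87 to 1.45, and Zeb2, at 0.95 to 1.23, lay close to that median. Free RNA gives UMIs to cells that do not express a gene, so the low values in neutrophil-like cells were set beside those of macrophage genes. C1qa, a complement gene of macrophages, had a UMI in 0.257%, 3.19%, 0.162% and 1.06% of neutrophil-like cells, and C1qb in 0.36%, 2.52%, 0.541% and 1.14%. Maf was seen in 2.18%, 2.85%, 1.97% and 2.14% of them, Klf4 in 1.75%, 2.48%, 2.03% and 1.83%, Cebpa in 0.719%, 1.33%, 0.946% and 1.4% and Irf8 in 0.411%, 0.704%, 0.0811% and 0.486%, at a median of 3218 to 4682.5 UMIs per cell. At 5 dpw in Angptl4+/+ wounds the share for C1qa lay above those of all 4 members, while in the other 3 libraries the shares for Maf and Klf4 lay above those of C1qa and C1qb. The genes differ in their macrophage-like level. At 5 dpw in Angptl4+/+ wounds C1qa had 10.4 CPM in neutrophil-like and 1431 CPM in macrophage-like cells, where Maf had 13 and 593 CPM, Klf4 12.3 and 688 CPM, Cebpa 4.4 and 111 CPM and Irf8 2.31 and 243 CPM. How much of the members' low values is free RNA was not tested.

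The first question of the design is what the loss of Angptl4 does to these factors. Within neutrophil-like cells, 7 of the 9 members had at least 100 UMIs over both sums, and a member counts here as called when its log2 ratio of CPM is at least 0.5 in size. No member was called for genotype at 1 dpw, against 7.2% of the 6474 genes tested, or at 5 dpw, against 8.67% of 6699. The ratios of Angptl4-/- over Angptl4+/+ were 0.06 (0.01 to 0.1) for Spi1, -0.05 for Cebpb, 0.19 for Cebpd and -0.14 for Zeb2 at 1 dpw. At 5 dpw they were -0.09, 0.07, -0.27 and -0.09, and the widest were -0.42 (-0.67 to -0.16) for Cebpe and -0.41 (-0.8 to -0.01) for Klf4. In macrophage-like cells all 9 members were tested and none was called, against 5.99% of 7824 genes at 1 dpw and 7.92% of 8834 at 5 dpw. The widest values at 5 dpw were 0.48 (0.1 to 0.85) for Cebpe, at 10.4 against 14.4 CPM, and -0.35 (-0.44 to -0.26) for Irf8, at 243 against 191 CPM. The Cebpe ratio was past 0.5 in 7 of the 12 settings read for it. The Irf8 ratio was negative in each of the 3 macrophage-like clusters at 5 dpw, at -0.58, -0.74 and -0.14 in those led by Ptges, Tppp3 and Ccl12. Cebpa, at -0.03 in the class, was -0.64 (-0.91 to -0.37), -0.18 (-0.42 to 0.05) and 0.29 (0.1 to 0.47) in the same clusters. The cluster led by Ccl12 was 26.8% of Angptl4+/+ and 35.7% of Angptl4-/- macrophage-like cells at 5 dpw. The part of cluster shares in the class ratios was not tested.

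Among these 3 classes, genotype calls were made only in dendritic cell-like cells. At 1 dpw 1 of 6 tested members was called, against 10.9% of 3992 genes. Cebpd was 32 CPM in Angptl4+/+ and 76.5 CPM in Angptl4-/- cells, a log2 ratio of 1.26 (0.75 to 1.78). At 5 dpw 2 of 7 were called, against 9.95% of 6320 genes. Irf8 went from 557 to 878 CPM, a ratio of 0.66 (0.58 to 0.74), and Cebpb from 154 to 89.6 CPM, a ratio of -0.78 (-0.99 to -0.57). Neither call held without the sub-cluster led by Xcr1, described below, where Irf8 was at 0.23 (0.12 to 0.34) and Cebpb at -0.47 (-0.7 to -0.23), and with equal sub-cluster shares Irf8 was at 0.33 and Cebpb at -0.99. At 1 dpw Irf8 had 549.6 and 561 CPM, a ratio of 0.03 (-0.12 to 0.18). There were 109, 311, 87 and 207 dendritic cell-like cells. Neutrophil markers summed to 4389.7, 855, 3217 and 848 CPM in them and macrophage markers to 972, 693, 1109 and 413 CPM, and their part in these ratios was not tested.

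**Figure D2:**
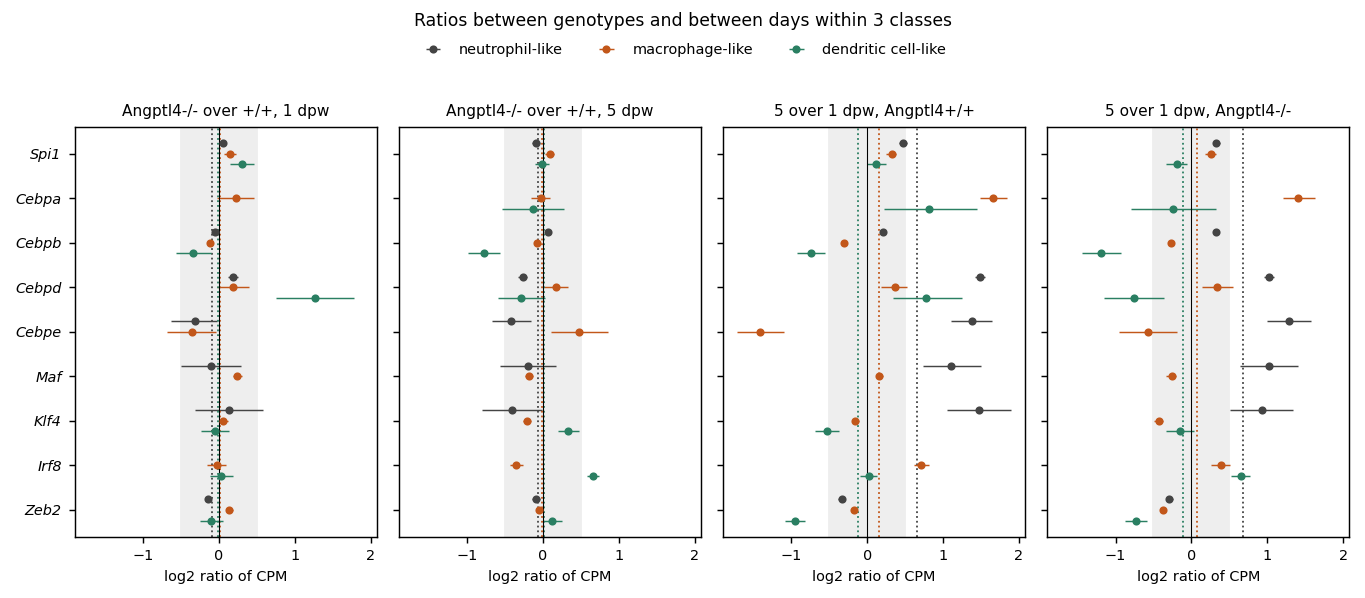
Log2 ratio of CPM for the members with at least 100 UMIs over both sums within neutrophil-, macrophage- and dendritic cell-like cells, for genotype (Angptl4-/- over Angptl4+/+, at 1 and 5 dpw) and for day (5 over 1 dpw, in each genotype), with 95% counting intervals; the grey band marks ±0.5 and dotted lines the median of all genes tested. The genotype ratios plotted for neutrophil- and macrophage-like cells lie inside the band, and day ratios reach 1.66 for Cebpa in macrophage-like cells.

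The second question is how the factors differed between 1 and 5 dpw. In neutrophil-like cells 4 of 7 tested members were called, all higher at 5 dpw, in each genotype. They were Cebpd, Cebpe, Maf and Klf4, and the background was 64.4% of 6617 genes in Angptl4+/+ and 65.8% of 6662 in Angptl4-/- cells. The median of all genes tested was itself shifted by 0.65 and 0.68, while the 11 neutrophil markers summed to 203082 CPM at 1 dpw and 108113 CPM at 5 dpw in Angptl4+/+ cells and to 220039 and 110234 CPM in Angptl4-/- cells. The day ratios of Maf were 1.11 and 1.02 and those of Klf4 1.47 and 0.93 in Angptl4+/+ and Angptl4-/- cells, from 87 to 138 UMIs per sum. C1qa was also higher in neutrophil-like cells at 5 dpw, at 0.508 and 10.4 CPM and at 0.327 and 3.1 CPM, and the part of free RNA in these ratios was not tested. Cebpd was 176 and 493 CPM in Angptl4+/+ cells (1.48, 1.42 to 1.55) and 201 and 408 CPM in Angptl4-/- cells (1.02, 0.96 to 1.09), above the shift of all genes. Spi1, at 0.47 and 0.32, and Cebpb, at 0.21 and 0.33, lay below that shift, and Zeb2 was lower at 5 dpw, by -0.33 and -0.29.

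In macrophage-like cells 3 of 9 members were called in Angptl4+/+ cells, against 35.6% of 8837 genes. Cebpa, the early commitment factor, had 35.1 CPM at 1 dpw and 111 CPM at 5 dpw (1.66, 1.48 to 1.84), Irf8 148 and 243 CPM (0.71, 0.62 to 0.81), and Cebpe 27.5 and 10.4 CPM (-1.41, -1.72 to -1.1). In Angptl4-/- cells 2 of 9 were called, against 30.8% of 7884 genes. Cebpa had 40.8 and 108 CPM (1.41, 1.2 to 1.63), Cebpe 21.4 and 14.4 CPM (-0.57, -0.95 to -0.19), and Irf8 146 and 191 CPM (0.39, 0.26 to 0.51). The Cebpe ratio in Angptl4-/- cells changed sign when cells were named by their own marker UMIs (0.25), as UMIs per cell (0.23) and after thinning each cell to 1000 UMIs (0.1). Cebpa was higher at 5 dpw in all 3 macrophage-like clusters of each genotype, by 1.2 to 1.85 in Angptl4+/+ and 0.95 to 1.45 in Angptl4-/- cells. Cebpb had 1626 and 1308 CPM in Angptl4+/+ and 1499 and 1241 CPM in Angptl4-/- cells. The neutrophil markers inside macrophage-like cells summed to 12087 and 11066 CPM at 1 dpw and 1952 and 2131 CPM at 5 dpw, with 11 of 11 markers detected in each, and their part in these ratios was not tested.

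In dendritic cell-like cells 5 of 7 members were called in Angptl4+/+ cells, against 27.4% of 5798 genes, and 4 of 7 in Angptl4-/- cells, against 21.5% of 4971. Zeb2 was lower at 5 dpw in both, with 538 and 278 CPM (-0.95, -1.08 to -0.82) and 502 and 303 CPM (-0.73, -0.88 to -0.58). Cebpb was lower too, by -0.74 and -1.19. Neutrophil markers in dendritic cell-like cells summed to 4389.7 and 855 CPM at 1 and 5 dpw in Angptl4+/+ wounds. They summed to 3217 and 848 CPM in Angptl4-/- wounds, and their part in the day ratios was not tested. The Angptl4+/+ value of Cebpb was -0.2 (-0.47 to 0.07) without the sub-cluster led by Dcstamp and -0.34 with equal sub-cluster shares, and so no longer a call. Cebpd went 2 ways, with 32 and 55.1 CPM in Angptl4+/+ (0.78, 0.34 to 1.25) but 76.5 and 45.2 CPM in Angptl4-/- cells (-0.76, -1.15 to -0.36). The sums behind these Cebpd values were 51, 225, 91 and 135 UMIs. Irf8 was 549.6 and 557 CPM in Angptl4+/+ (0.02) and 561 and 878 CPM in Angptl4-/- cells (0.65), the latter 0.29 (0.12 to 0.45) without the sub-cluster led by Xcr1. The Angptl4+/+ ratio of Cebpd was 0.49 (0.02 to 0.98) without the sub-cluster led by Dcstamp. The other calls in Angptl4+/+ cells were Klf4, lower at 329 and 228 CPM, and Cebpa, higher, from sums of 29 and 130 UMIs. Monocyte-like cells had 1 cluster, led by Ace, and few cells. There 0 of 8 tested members were called for genotype, against 5.93% of 4971 genes at 1 dpw and 8.25% of 3747 at 5 dpw. Between days 4 of 8 were called in Angptl4+/+ cells, against 22.6% of 4585 genes. In Angptl4-/- cells 3 of 8 were called, against 16.9% of 4300. Klf4 was 327 and 620 CPM in Angptl4+/+ (0.92, 0.78 to 1.07) and 332 and 581 CPM in Angptl4-/- cells (0.81, 0.66 to 0.96), while Cebpd was lower at 5 dpw by -0.64 and -0.46. Maf (0.91, 0.44 to 1.37) and Irf8 (0.53, 0.33 to 0.73) were also called higher at 5 dpw in Angptl4+/+ monocyte-like cells. Both were called higher in Angptl4-/- monocyte-like cells too, with Maf at 37.9 and 57.3 CPM and Irf8 at 212 and 305 CPM.

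Neutrophil-like cells were not uniform, and the members separated their 8 clusters. The clusters are named here by leading genes. The cluster led by Ngp and Mmp8, granule genes, had the most Spi1 in every library (933, 1162, 844 and 1078 CPM) and the most Cebpd (366, 1179, 367 and 1049 CPM). It also had the least Cebpb in every library (3160.3, 3239, 3168 and 3442 CPM). For Spi1 the cluster led by Egr3 was close behind in Angptl4-/- cells at 1 dpw, at 835 CPM. The cluster led by Csf1 and Il1rn had 1261, 1106, 1303 and 1021 CPM of Zeb2, the highest of the 8 in every library, and the lowest Cebpd (73.2, 133, 81.9 and 127 CPM). The cluster led by Csf3, Il1a and Ccl3 had 1239, 1000.1, 1300.2 and 815 CPM of Zeb2, the next highest, and the least Spi1 (304, 306, 238 and 300.1 CPM).

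**Figure D3:**
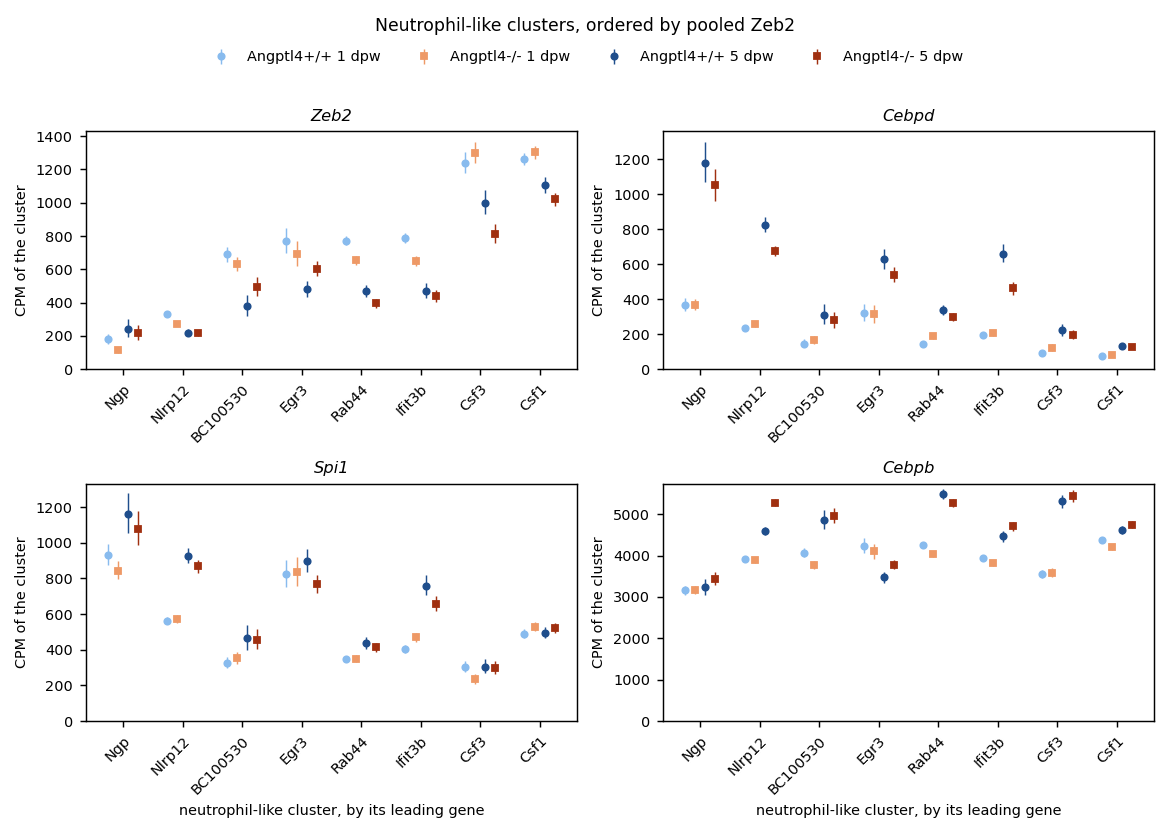
Levels (CPM) of Zeb2, Cebpd, Spi1 and Cebpb in the 8 neutrophil-like clusters, each named by its leading gene and ordered by pooled Zeb2, 1 point for each library with 95% Poisson intervals. Zeb2 is highest at the right, in the cluster led by Csf1, at 1021 to 1303 CPM, where Cebpd is lowest, at 73.2 to 133 CPM.

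Across the 8 clusters, Zeb2 and Cebpd had a Pearson correlation of -0.79, -0.87, -0.81 and -0.87 in the 4 libraries, given as a description since clusters of 1 library share depth and free RNA. Cebpd and Spi1 had 0.75, 0.86, 0.64 and 0.83. The day ratio of Cebpd was positive in all 8 clusters of both genotypes, lying between 0.86 and 1.82 for Angptl4+/+ cells and between 0.63 and 1.51 for Angptl4-/- cells. The median of all genes tested in the whole neutrophil-like class was itself 0.65 and 0.68. Medians within clusters are not given. Several Angptl4-/- clusters lay near the class median, such as those led by Csf1, Rab44 and Csf3, at 0.63, 0.66 and 0.69. Zeb2 was lower at 5 dpw in 7 of 8 clusters in each genotype, the Ngp and Mmp8 cluster being the other one, at 179 and 242 CPM and at 114 and 217 CPM. Ngp itself, a granule gene downstream of C/EBPε, had 215 and 12.4 CPM in all neutrophil-like cells of Angptl4+/+ wounds (-4.12, -4.41 to -3.84) and 269.6 and 10.7 CPM in Angptl4-/- wounds, and Lcn2 had 3611 and 1125 CPM and 3843 and 873 CPM.

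Macrophage- and monocyte-like cells together made 9 sub-clusters, shown in the plot of macrophage sub-clusters. The sub-cluster named for Ace monocytes held 553 cells, against 552 in the monocyte-like class. A further sub-cluster of 715 cells, led by Dmkn and Gpr183, scored highest on a Ly6c2 monocyte list but was left unnamed. By these numbers its cells counted mostly as macrophage-like, so the monocyte-like values above describe mainly Ace monocytes. Maf was highest in both sub-clusters named for C1q macrophages, at 1164, 1114, 1239 and 959 CPM in the one led by Gas6 and Hpgds and 842, 915, 1123 and 787 CPM in the one led by Ltc4s and Tppp3. Maf was lowest in the Ace monocyte sub-cluster, at 35.9, 67.3, 37.9 and 57.3 CPM. Cebpa was highest in the Gas6 and Hpgds sub-cluster at 5 dpw, at 148 and 178 CPM, against 79.6 and 72.6 CPM at 1 dpw.

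**Figure D4:**
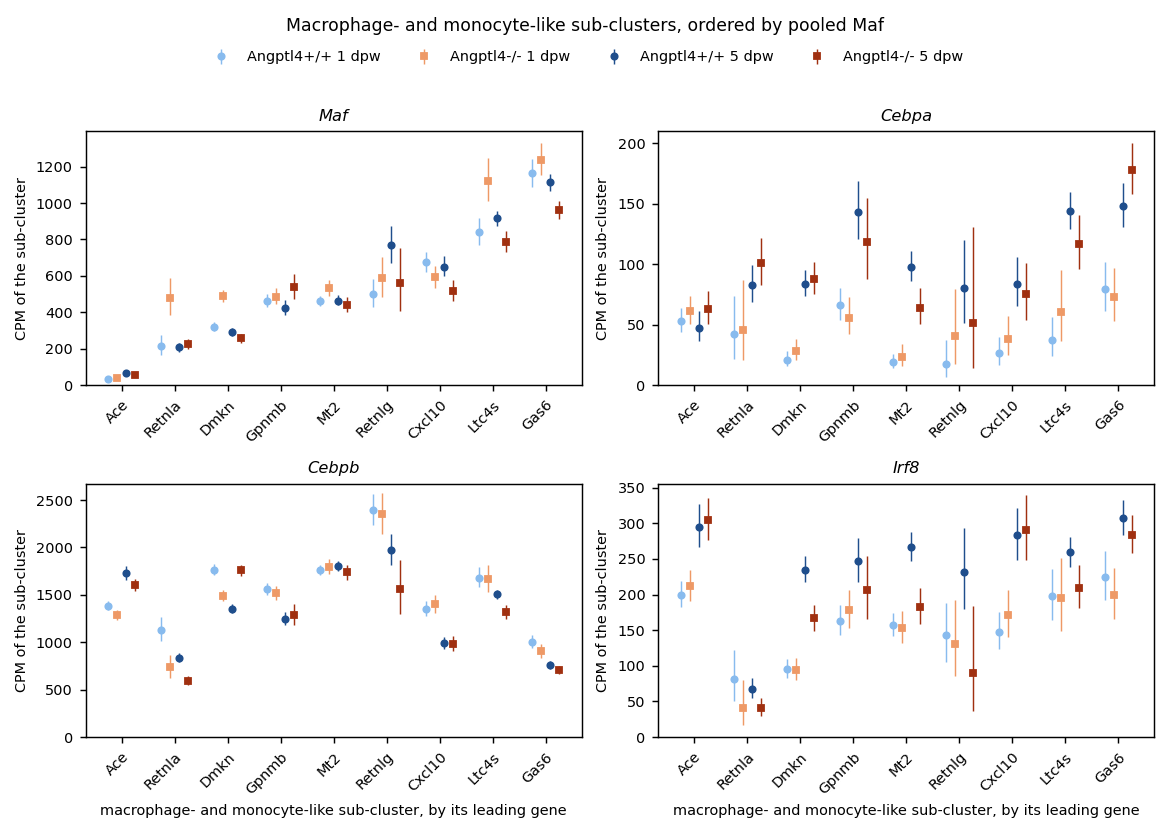
Levels (CPM) of Maf, Cebpa, Cebpb and Irf8 in the 9 sub-clusters of macrophage- and monocyte-like cells, each named by its leading gene and ordered by pooled Maf, 1 point for each library with 95% Poisson intervals. Maf runs from 35.9 CPM in the Ace sub-cluster to 1239 CPM in the Gas6 and Hpgds sub-cluster.

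Cebpa was higher at 5 dpw in 8 of 9 sub-clusters of Angptl4+/+ wounds and in 9 of 9 of Angptl4-/- wounds. In the Ace monocyte sub-cluster it was 53.3 and 47.5 CPM in Angptl4+/+ wounds. Irf8 was lowest in the sub-cluster led by Retnla and Mgl2, at 81, 67.8, 40.7 and 40.5 CPM, from 28, 94, 25 and 54 cells. That sub-cluster had the most Cebpe in 3 of the 4 libraries, at 21.1, 44, 45.8 and 40.5 CPM. The sub-cluster led by the interferon genes Cxcl10 and Ifit2 had 68.7 and 38.5 CPM of Cebpe at 1 dpw and 4.66 and 10.7 CPM at 5 dpw. Cebpb was highest in the sub-cluster led by Retnlg and S100a8, at 2395, 1976 and 2349 CPM in the first 3 libraries. That sub-cluster of 470 cells had 4 neutrophil markers among its 10 leading genes and a median of 1269.5 UMIs, and it was left unnamed.

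Dendritic cell-like cells held 6 sub-clusters. Irf8, required for type 1 conventional and plasmacytoid dendritic cells, ran from 27.7 to 4052 CPM among them. The plasmacytoid-like sub-cluster of 33 cells, led by Iglc3 and Siglech, had 3571, 3873, 4052 and 3749 CPM. The conventional type 1-like sub-cluster (cDC1, led by Xcr1 and Clec9a, 117 cells) had 501, 1022, 916 and 1763 CPM. The mature-like sub-cluster led by Ccl22 and Ccr7 had 725, 547, 395 and 856 CPM, and the sub-cluster led by Ffar2 and Siglece 27.7, 96.4, 78.5 and 44.8 CPM. Zeb2 was at 1007, 771, 1023 and 606 CPM in the sub-cluster led by Dcstamp and Fn1, the highest except in Angptl4-/- cells at 5 dpw. The plasmacytoid-like sub-cluster had 601, 467, 810.5 and 659.8 CPM of Zeb2, from 34, 69, 17 and 88 UMIs, and was the highest in that library. The sub-cluster led by Dcstamp was left unnamed, with 2 macrophage markers, Fn1 and Spp1, among its leading genes. It made up 23.9%, 10.9%, 14.9% and 14% of dendritic cell-like cells.

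**Figure D5:**
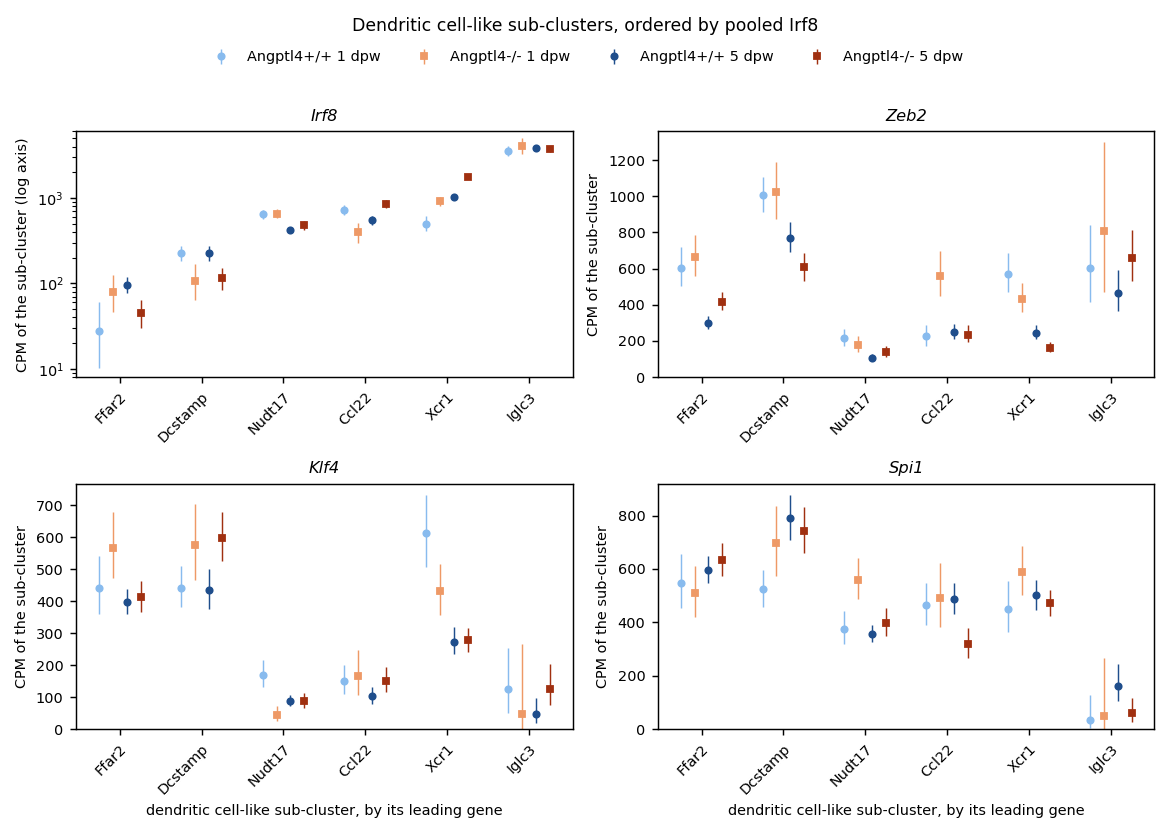
Levels (CPM) of Irf8 (log axis), Zeb2, Klf4 and Spi1 in the 6 sub-clusters of dendritic cell-like cells, each named by its leading gene and ordered by pooled Irf8, 1 point for each library with 95% Poisson intervals. Irf8 in the plasmacytoid-like sub-cluster lies between 3571 and 4052 CPM, above all others, and in the cDC1-like sub-cluster both Angptl4-/- points lie above the Angptl4+/+ point of their day.

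The cDC1-like sub-cluster also held markers of other dendritic cells, with a UMI of Xcr1 in 27.4% of its cells, Clec9a in 47%, Cd209a in 41.9% and Siglech in 21.4%, and their part in its ratios was not tested. The genotype ratio of Irf8 within cDC1-like cells was 0.87 (0.53 to 1.22) at 1 dpw, from 14 and 18 cells, and 0.79 (0.65 to 0.92) at 5 dpw, from 42 and 43 cells. Cebpb in these cells at 5 dpw was 245 CPM in Angptl4+/+ and 62.5 CPM in Angptl4-/- cells (-1.97, -2.46 to -1.5). Plasmacytoid-like cells had Irf8 ratios of 0.18 (-0.2 to 0.55) at 1 dpw, from 5 and 2 cells, and -0.05 (-0.22 to 0.13) at 5 dpw, from 14 and 12 cells, and the 5 dpw interval lay within 0.5 of no change. In the sub-cluster led by Dcstamp the Irf8 genotype ratio was -1.07 (-1.88 to -0.33) at 1 dpw and -1.0 (-1.54 to -0.48) at 5 dpw. In the one led by Ffar2 it was -1.1 (-1.76 to -0.49) at 5 dpw. The one led by Ccl22 had -0.88 (-1.32 to -0.45) and 0.65 (0.42 to 0.87), and the one led by Nudt17 0.03 and 0.18. At 5 dpw the Irf8 ratio was above 0 in 3 of the 6 sub-clusters. The share of cDC1-like cells among dendritic cell-like cells was 12.8%, 13.5%, 20.7% and 20.8%. Without cDC1-like cells, the Cebpd day ratio of Angptl4-/- cells was 0.25 (-0.33 to 0.87) in place of -0.76, and the genotype ratio of Cebpd at 1 dpw was 0.75 (-0.01 to 1.51) in place of 1.26.

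In NK cell/T cell-like cells, a sub-cluster had Klrb1c and Ncr1, natural killer receptors, among its leading genes. Irf8 was 1575, 627, 809 and 871 CPM there, from 9, 81, 13 and 65 cells. It was 164 CPM or less in each library of the other 4 sub-clusters, which had as few as 1 cell in a library.

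Over all cells, a gene's mean UMIs per cell mixes its levels with the class shares, and in such sums fewer cells of a type and less RNA per cell cannot be told apart. Maf had 1.71 UMIs per cell in Angptl4+/+ wounds and 1.01 in Angptl4-/- wounds at 5 dpw, which is -0.76 on the log2 scale, and 0.3 with the Angptl4+/+ class shares. Klf4 had -0.68 and 0.29, Cebpa -0.59 and 0.43, and Irf8 -0.21 and 0.45. Each of these 4 genes was lower per cell over all Angptl4-/- cells at 5 dpw, and higher with the class shares held equal, as were all 9 members, by 0.03 to 0.45. UMIs per cell are not scaled for depth, and the median macrophage-like cell at 5 dpw had 8344 UMIs if Angptl4+/+ and 11552 if Angptl4-/-. By CPM within macrophage-like cells the ratios were -0.18 for Maf, -0.21 for Klf4, -0.03 for Cebpa and -0.35 for Irf8.

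Each member's closest genes were found over 18 sums of a class in a library with at least 50 cells, among 7099 genes, as a description with no p. Irf8 ran closest to Mink1 (Pearson r of 0.993), Ncoa7 and Ppdpf, and Klf4 to Cyp4v3 (0.988), Sumf1 and Pkig. Spi1 ran closest to Skap2 (0.977), Aph1c and Fgr, Cebpb to Pilra (0.976), Sec14l1 and Slc11a1, and Cebpa to Leprot (0.975), Clec4a1 and Zcchc24. Zeb2 ran closest to Adssl1 (0.97), Soat1 and Cd68, Cebpd to Sirpb1b (0.958), Tyrobp and 1600010M07Rik, Maf to Lyz1 (0.947), Itsn1 and C330007P06Rik, and Cebpe to Tmem140 (0.91), Fam160b2 and Prkaa1. The 18 points share libraries, depth and free RNA. Between members, Cebpa and Klf4 had 0.94 and Klf4 and Irf8 0.88.

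Of 51 other lineage transcription factors, 38 were tested in neutrophil-like cells at 1 dpw and 1 was called higher and 2 lower in Angptl4-/- cells, 7.89% against 7.2% of all genes tested. Id3, an inhibitor of E-protein DNA binding, had 9.9 CPM in Angptl4+/+ and 94.3 CPM in Angptl4-/- neutrophil-like cells at 1 dpw (3.25, 3.04 to 3.47) and 4.16 and 44.9 CPM at 5 dpw (3.43, 2.94 to 3.96). It was also the highest of the list for genotype in macrophage-like cells at 1 dpw, at 22.9 and 35.6 CPM (0.63, 0.35 to 0.92), and it was 14 and 21.7 CPM at 5 dpw. Runx3 was 18.5 and 6 CPM in neutrophil-like cells at 1 dpw (-1.63, -1.95 to -1.32). At 5 dpw Runx3 was not among the 3 lowest of the list for genotype, which ended at -0.35 for Batf. In Angptl4-/- neutrophil-like cells Runx3 had 6 CPM at 1 dpw and 18 CPM at 5 dpw (1.58, 1.25 to 1.93). In Angptl4+/+ macrophage-like cells, 8 of 43 tested were higher at 5 dpw and 13 lower, 48.8% against 35.6% of all genes, with Batf3 at 4.03 and 34.6 CPM, Pparg at 2.8 and 19 CPM and Ets2 at 394 and 113 CPM.

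A list of 27 genes known as targets of these factors was also read. In macrophage-like cells of Angptl4+/+ wounds, 17 were tested, 5 were called higher and 5 lower at 5 dpw, 58.8% against 35.6% of all genes. C1qa, C1qb and C1qc, complement genes of tissue macrophages, had 205, 309.8 and 146 CPM at 1 dpw and 1431, 1590.1 and 772 CPM at 5 dpw, and Cd14 had 2144 and 771 CPM. Arg1, a C/EBPβ target, had 5710.2 and 2480 CPM in Angptl4+/+ (-1.2, -1.22 to -1.18) and 4281 and 1600 CPM in Angptl4-/- cells (-1.42, -1.45 to -1.39). Cebpb itself was lower by -0.31 and -0.27, short of a call. This fall was not seen in the macrophage-like cluster with Arg1 among its leading genes. There the Cebpb day ratio was -0.02 (-0.07 to 0.02) for Angptl4+/+ cells but 0.25 (0.2 to 0.31) for Angptl4-/- cells. The clusters led by Tppp3 and Ccl12 had -0.45 and -0.5 for Angptl4+/+ cells, then -0.72 and -0.44 for Angptl4-/- cells. The part of cluster shares in the class ratios of Arg1 and Cebpb was not tested. For genotype at 5 dpw, 4 of 17 were called in macrophage-like cells, 23.5% against 7.92% of all genes. The counts were 5 of 14 in neutrophil-like cells, 35.7% against 8.67%, and 4 of 9 in monocyte-like cells, 44.4% against 8.25%. At 1 dpw the shares were 29.4% against 5.99%, 14.3% against 7.2% and 9.09% against 5.93% in these classes, and 33.3% against 10.9% in dendritic cell-like cells. In dendritic cell-like cells at 5 dpw, 15 were tested, 5 were called higher and 4 lower in Angptl4-/- cells, 60.0% against 9.95% of all genes. Xcr1, Clec9a and Cadm1, genes of cDC1, a cell type that needs IRF8, had 13.9, 15.9 and 9.79 CPM in Angptl4+/+ and 46.2, 33.1 and 39.8 CPM in Angptl4-/- cells, and Il12b had 56 and 172 CPM. The cDC1-like share of dendritic cell-like cells at 5 dpw was 13.5% in Angptl4+/+ and 20.8% in Angptl4-/- wounds. The part of that share in these values was not tested. In neutrophil-like cells between days, 5 of 15 were called higher and 6 lower at 5 dpw in Angptl4+/+ wounds, and 3 and 7 of 14 in Angptl4-/- wounds, 73.3% and 71.4% against 64.4% and 65.8% of all genes. C1qa, C1qb, C1qc, Arg1, Xcr1, Clec9a and Cadm1 are also markers by which clusters were named, so their levels in the named classes are a description.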

How the data were processed

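Live CD45+ wound cells were captured with a droplet 3′ kit in 4 libraries, 1 per genotype and day. Per the labels, the authors aligned reads to mm10 with Cell Ranger 3.1.0 and used Seurat 3.0, and they deposited raw UMI counts per gene and barcode. Barcodes with at least 200 genes and at most 10% mitochondrial UMIs were kept. Libraries were joined with Seurat 5.3.0 (R 4.3.3) on 2000 variable genes and 30 dimensions, and clustered at resolution 0.5. The 9 members, the 51 other lineage transcription factors, Angptl4, Ifi202b and Hebp1 were left out of the variable genes. Classes were named from marker lists, so names were rebuilt and shares can differ from the study's. A total of 18 mast or erythroid cells were set aside by a threshold of 10 UMIs chosen after the data were seen. Scrublet, a doublet caller run in scanpy 1.11.5, marked under 0.5% of cells, so doublets stayed in and an alternative removed the 2.94% to 3.82% of each library's cells with the highest scores. Members' UMIs were summed per class and library. Intervals were exact Poisson, Clopper-Pearson and conditional binomial. Genes with at least 100 UMIs over both sums were tested for a log2 ratio of at least 0.5 in size. No test was run, since each group is 1 library. The members and gene lists were chosen with earlier results of these data known. Besides the members, the genes named were the 3 most like each member in pattern, the 3 highest and lowest of the other lineage factors, and the target list, of which the report prints a selection. The scripts were tested on simulated data.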

Additional observations from a re-analysis of the deposited data

Results flagged for a closer look

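In dendritic cell-like cells the day ratio of Cebpd had opposite signs in the 2 genotypes, 0.78 in Angptl4+/+ and -0.76 in Angptl4-/- cells on the log2 scale. The difference was not tested, because each genotype and day is 1 library. Without cDC1-like cells the Angptl4-/- ratio was 0.25 (-0.33 to 0.87).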

How the results depend on the processing

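Of 704 values of members under alternatives, 521 moved by less than their counting interval, 180 by more, and 3 reversed the sign of a called ratio. In all 3, Cebpe in macrophage-like cells between days in Angptl4-/- wounds, -0.57 as reported, was 0.25 when cells were named by their own marker UMIs, 0.23 as UMIs per cell and 0.1 after thinning to 1000 UMIs. Some ratios short of a call also changed sign under alternatives. Spi1 in neutrophil-like cells between days in Angptl4+/+ wounds, 0.47 as reported, was -0.19 at its lowest. Irf8 in macrophage-like cells for genotype at 5 dpw, -0.35 as reported, was 0.15 at its highest. Cebpe in the same comparison, 0.48 as reported, was positive in all 12 settings read for it, from 0.47 to 1.72. It was past 0.5 in 7 of them, and Cebpd was past 0.5 in 3. The number of members called in macrophage-like cells for genotype at 5 dpw, 0 as reported, was 1 under the stricter cell filter, without integration, at resolution 1, as the mean of each cell's CPM and after thinning, and 3 by marker UMIs and as UMIs per cell. At 1 dpw it was 1 under these last 2. Between days in macrophage-like cells it was 5 in Angptl4+/+ by marker UMIs, and in Angptl4-/- wounds 1 without integration or at a log2 ratio of 1 and 6 as UMIs per cell. In neutrophil-like cells it was 2 between days in Angptl4-/- wounds with median-of-ratios scaling or thinning, and for genotype 1 at 5 dpw as the mean of each cell's CPM and 1 at both days at 30 UMIs. Between days in Angptl4-/- neutrophil-like cells, Cebpd and Maf were each 0.45 at their lowest and past 0.5 in 11 of 12 settings. Klf4 was 0.32 at its lowest and past 0.5 in 9. Zeb2, short of a call as reported, was past 0.5 in the lower direction in 2 settings of each genotype. Its lowest values were -0.99 in Angptl4+/+ and -0.86 in Angptl4-/- cells. The cause was not tested. Counting UMIs per cell moved 48 of 64 members' ratios beyond their interval. Leaving out cells with shared barcodes, an alternative chosen after seeing the data, moved no member beyond its counting interval. Cebpa stayed higher at 5 dpw in macrophage-like cells under all 12 settings read for it, with ratios from 1.33 to 2.44 (Angptl4+/+) and from 1.29 to 2.21 (Angptl4-/-). No paired analysis was possible because each group has 1 library.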
